A study of Mus musculus with 6 samples.

Results

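The members of the TGF-β, activin and BMP pathway were followed in mouse embryonic fibroblasts (MEF) that had passed through narrow pores. The 46 genes were picked by symbol from the 55335 gene identifiers of the deposited count table, as ligands, proteins that store or block ligands, receptors, SMAD proteins and Id target genes. Of them, 18 belong to the TGF-β and activin arm, 23 to the BMP arm and 5 are shared or stand beside both. Poly(A) RNA of wild-type MEF, a line kept in culture in DMEM with serum, was sequenced in 2 groups. Ctrl cells were the parental population and had not crossed a membrane. Confine cells had been placed above a transwell membrane with 3 μm pores and were collected below it after 15 h. Both groups came from the same line and genotype, the labels give 1 growth medium for all samples and name no added agent, and nothing in the sources used here describes parental cells that were kept on a membrane without crossing it. For its migration assay with wider pores, the study's methods put medium without serum above the membrane and medium with serum below it, and the media used with the 3 μm inserts are not given in the sources used here. Passage through the pores, time on the insert, a change of serum and the selection of cells that migrate therefore cannot be told apart in this comparison.

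TGF-β family ligands are secreted proteins that bind pairs of type I and type II receptor kinases. Receptors for TGF-β and activin phosphorylate SMAD2 and SMAD3, receptors for BMP phosphorylate SMAD1, SMAD5 and SMAD9, and both kinds of SMAD enter the nucleus with SMAD4. Fibroblasts make much of the extracellular machinery themselves: latent TGF-β is stored in the matrix on LTBP proteins, secreted antagonists such as gremlin and follistatin trap BMP and activin, and the inhibitory SMADs are induced by the signals they dampen.

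The table has 3 columns for Ctrl and 3 for Confine, and the columns of Confine replicates 1 and 2 held the same count in all 55335 genes. They were counted as 1 library, named Confine 2 here, so every comparison below is of 3 Ctrl against 2 Confine libraries. Total counts lay between 22287210 and 32537550 per library, and 3 counts, taken as the floor of detection, correspond to 0.101 to 0.128 normalized CPM. Normalized CPM (CPM stands for counts per 1000000 counts of a library) were scaled by TMM. The floor covers counting error only, as the reads carried no molecular identifiers and may repeat a molecule. Nothing in the sources states that the libraries came from separate cultures, so the p-values measure the spread between these libraries, which may be technical. An exact permutation test of 3 against 2 libraries cannot go below p = 0.1.

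The fibroblast label was checked against 10 marker genes, whose summed level was 8729 to 9586 normalized CPM in Ctrl and 15720 to 16490 in Confine. Most of that sum was Vim, Col1a1 and Col1a2. Of the 7 tested markers 5 rose (71.4%), against 12.8% of all tested genes. Col1a2 and Pdgfrb did not pass (log2 fold changes 0.24 and -0.36), and Pdgfrb lay below every Ctrl library in both Confine libraries. Of the defining fibroblast genes 3 were at or near 0, with 0 to 2 counts of Thy1, 0 to 1 of Fap and 0 to 27 of Dcn. The 7 epithelial markers summed to at most 0.675 normalized CPM in any library, with Epcam, Krt18 and Cldn4 at 0. The 12 leukocyte markers summed to 15.9 to 18.3 normalized CPM in Ctrl and 35.9 to 41.4 in Confine. Of these 12 genes 4 were tested: Cd68, Cd14 and Csf1r rose, Lyz2 fell, and Adgre1 and Cd3e were at 0. The 6 smooth muscle and pericyte markers summed to 228 to 242 normalized CPM in Ctrl and 447 to 452 in Confine. Most of that sum was Cspg4, which is not restricted to these cells (216 in Ctrl and 428 in Confine on average). Des and Cspg4 rose (log2 fold changes 1.43 and 0.98), Rgs5 fell by 2.57 from 14 to 21 counts to 2 and 4, Cnn1 did not pass (-0.54), and Mcam and Myh11 were too low to test. The part of other cell types in the results below was not tested. In bulk RNA, fewer cells with a transcript and less transcript per cell cannot be told apart.

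Of the 46 members, 41 passed edgeR's filter on low counts and were tested, and 23 of these passed the test at an adjusted p under 0.05 (56.1%). The share was 23% over all 15881 tested genes. The members were chosen with earlier results of these data known, so the difference from that share describes the chosen genes only. In Confine, 15 members were higher and 8 lower, against 12.8% of all tested genes higher and 10.2% lower. When TMM was left out and only library size was used, the median over all tested genes shifted by -0.21 on the log2 scale. The share of all calls that were higher went from 55.7% to 34.0%. Of the members, 11 were then higher and 10 lower, so the excess of rises depends on the scaling. Ltbp2, Bmpr2, Eng and Id2 lost the call, Fst and Bambi gained it as lower, and none of the 23 called members changed sign. With TMM the median log2 fold change was 0.30 over the 41 tested members and -0.0021 over all tested genes. In the TGF-β and activin arm 5 of 17 tested members were higher and 3 lower (median 0.31), and in the BMP arm 8 of 19 were higher and 5 lower (median -0.0050). With an absolute log2 fold change above 1.5 asked for in addition, 5 members were higher and 3 lower, against 4.89% and 3.11% of all tested genes. Without Ctrl 2, 19 members were called higher rather than 15, and 8 of them were in the TGF-β and activin arm. Without Ctrl 1, 12 were higher, 5 of them in the BMP arm, and 1 member of the TGF-β and activin arm was lower. In the BMP arm 5 members were lower whichever Ctrl library was left out. Calls over all tested genes moved too, from 2035 higher and 1619 lower with every library. Without Ctrl 2 they were 2411 and 2015 of 15523 genes, and without Ctrl 1 they were 1564 and 1186 of 15463. Leaving out Confine 2 or Confine 3 leaves 1 Confine library, and fewer members and fewer genes overall were then called. The levels in Ctrl and Confine did not overlap for 27 of the 41 tested members, against 49.5% of all tested genes.

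**Figure D1:**
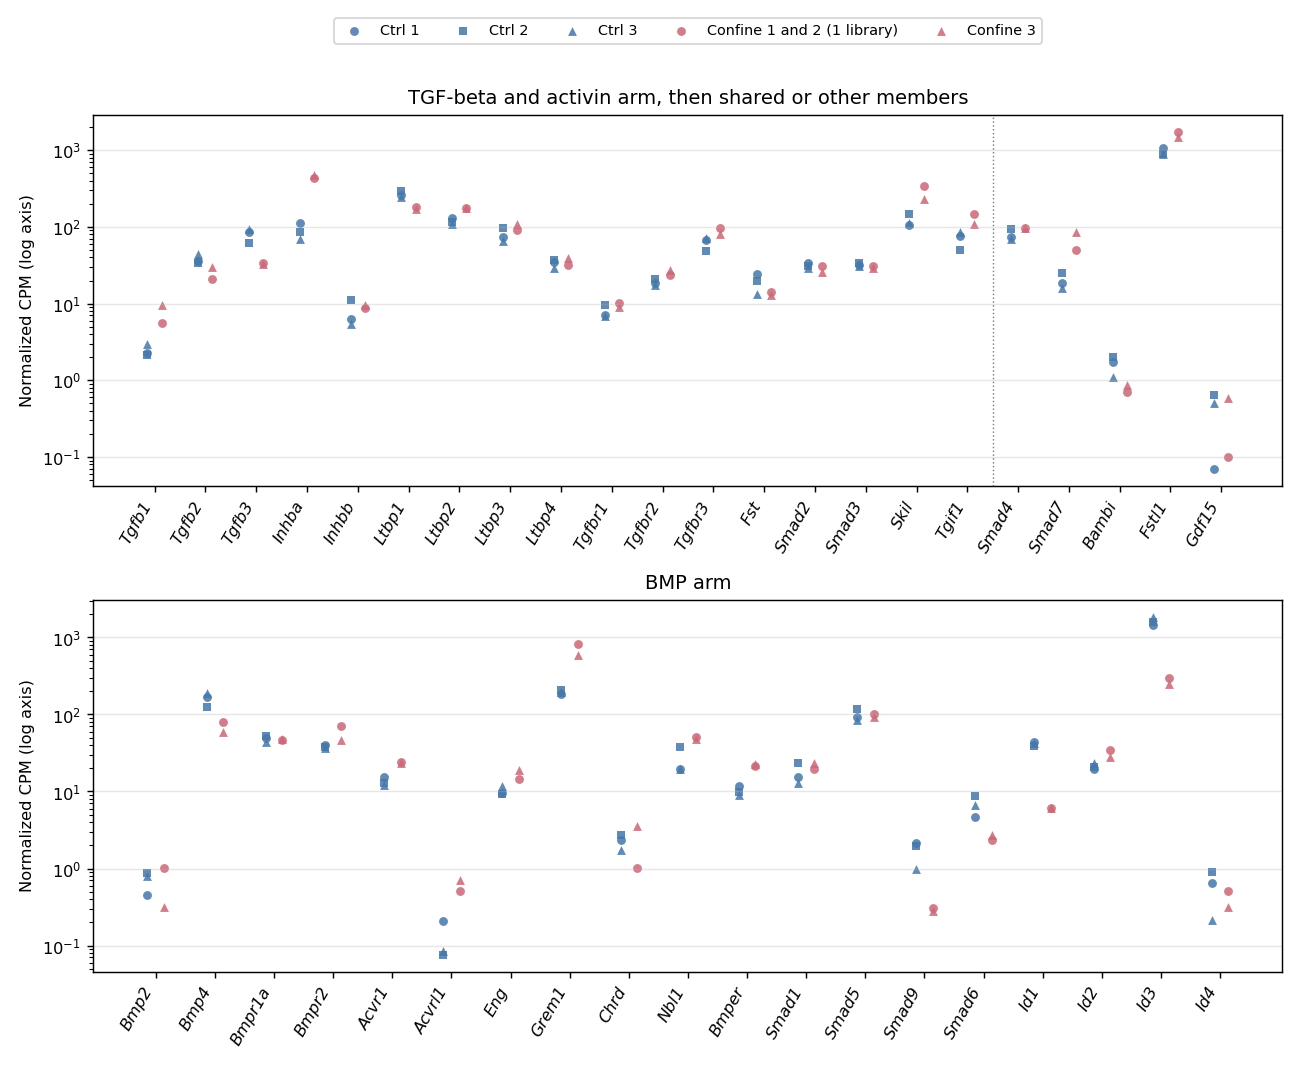
Normalized CPM (log axis) of the 41 tested members in each of the 5 libraries, with the TGF-β and activin arm and the 5 shared or other members in the upper panel and the BMP arm in the lower panel. Each point is 1 library, blue for Ctrl and red for Confine; Id3 drops from 1436 or more in every Ctrl library to 300.5 and 250.4 in Confine, while Inhba and Grem1 stand higher in both Confine libraries.

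Among the ligands of the first arm, the activin subunit rose most and the 3 TGF-β genes went different ways. Inhba, which encodes the βA subunit of activin A (chr13:16011851-16031621 on GRCm38, plus strand), had 112, 86.7 and 70.3 normalized CPM in Ctrl and 438 and 476 in Confine. Both Confine libraries stood far above all 3 Ctrl libraries, and the log2 fold change was 2.35 (SE 0.20, adjusted p = 1.09e-07, edgeR's quasi-likelihood test here and below). It was the largest rise among the members in the reported fit, although Acvrl1, on few counts, stood above it without Ctrl 1 (2.85 against 2.54) and without Confine 2 (2.47 against 2.41). Tgfb1, the most widely expressed TGF-β isoform in the body (chr7:25687002-25705077), had 2.28, 2.15 and 2.98 normalized CPM in Ctrl and 5.51 and 9.49 in Confine. The groups were separate, and Tgfb1 rose by 1.60 on the log2 scale (SE 0.29, adjusted p = 0.00052) from a low level of 57 to 70 counts. Tgfb3, an isoform prominent in embryonic mesenchyme (chr12:86056745-86079041), had 86.4, 60.9 and 93.0 normalized CPM in Ctrl and 34.0 and 33.3 in Confine. It fell by 1.25 on the log2 scale (SE 0.21, adjusted p = 0.000212), with both Confine libraries below the lowest Ctrl library. Tgfb2 had 36.5, 34.3 and 44.1 normalized CPM in Ctrl and 21.2 and 30.1 in Confine. It fell by 0.58 (SE 0.21), with an adjusted p of 0.0492 that was lost without Ctrl 1, Ctrl 3, Confine 2 or Confine 3, when the log2 fold change was -0.62, -0.49, -0.35 and -0.86. Inhbb, the βB subunit, overlapped between the groups at 5.44 to 11.2 normalized CPM in Ctrl and 8.78 and 9.65 in Confine (log2 fold change 0.26, SE 0.28, adjusted p = 0.548). Without Ctrl 2 it passed the test, with a log2 fold change of 0.64.

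Per kilobase of exon, Tgfb3 was the most abundant TGF-β isoform in both groups, at 23.7 normalized CPM per kb in Ctrl and 9.94 in Confine. Tgfb2 followed at 6.61 and 4.42 normalized CPM per kb and Tgfb1 at 0.490 and 1.49, so the order of the isoforms was the same in both groups. The normalized CPM of the 3 genes summed to 125, 97.4 and 140.1 in Ctrl and to 60.6 and 72.9 in Confine. The 3 Ctrl sums were all above both Confine sums. On the same per-length scale Inhba went from 14.0 to 71.6 normalized CPM per kb, from below Tgfb3 in Ctrl to well above all 3 isoforms in Confine.

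Of the 4 LTBP genes 1 fell (25%) and 1 rose (25%), against 10.2% and 12.8% of all tested genes. Among Ltbp1, Ltbp3 and Ltbp4, whose proteins can bind latent TGF-β, Ltbp1 fell and the others did not pass the test. Ltbp1, which tethers the latent complex to fibrillin fibres, had 258, 291 and 243 normalized CPM in Ctrl and 181 and 171 in Confine, a fall by 0.59 on the log2 scale (SE 0.18, adjusted p = 0.0239). Ltbp2, a relative that binds fibrillin but not latent TGF-β, had 129, 117 and 108 normalized CPM in Ctrl and 178 and 177 in Confine, a rise by 0.59 (SE 0.17, adjusted p = 0.0203). Neither gene's groups overlapped. Ltbp1 lost its call without Ctrl 1 (-0.61), Confine 2 (-0.62) or Confine 3 (-0.55), and Ltbp2 lost it without Ctrl 3 (0.51), Confine 2 (0.59) or Confine 3 (0.59) and with library size alone (0.38). Ltbp3 and Ltbp4 overlapped between the groups (log2 fold changes 0.36 and 0.10, SE 0.20 and 0.19, adjusted p = 0.215 and 0.760), and without Ctrl 2 Ltbp3 passed the test at 0.53. Exons of Ltbp2 overlap those of the sparse D030025P21Rik on the opposite strand, and whether reads were counted by strand is not given in the sources used here.

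The TGF-β receptors and the SMADs they activate did not pass the test. Tgfbr1 and Tgfbr2, the type I and type II receptor kinases, had log2 fold changes of 0.31 (SE 0.23, adjusted p = 0.378) and 0.43 (SE 0.19, adjusted p = 0.116), and Tgfbr3, the co-receptor betaglycan, 0.49 (SE 0.20, adjusted p = 0.0900). Both Confine libraries lay above all Ctrl libraries for Tgfbr2 and Tgfbr3, and the groups overlapped for Tgfbr1. Transcripts of Tgfbr2 hold stretches of 100 to 171 bases at 95% identity or more to those of many other genes. Among these is Cast, with 2746 counts per library on average, so the counts of Tgfbr2 are uncertain. Without Ctrl 2, Tgfbr2 passed at 0.51. Smad2 and Smad3, the messengers of this arm, stood at 28.8 to 33.8 and 31.0 to 34.0 normalized CPM in Ctrl and at 25.9 to 31.3 and 29.4 to 31.2 in Confine. Their log2 fold changes were -0.12 and -0.10 with SE of 0.19 and 0.18 (adjusted p = 0.709 and 0.755). Fst, follistatin, which traps activin, had 24.5, 19.96 and 13.4 normalized CPM in Ctrl and 14.2 and 12.8 in Confine, and did not pass (log2 fold change -0.52, SE 0.24, adjusted p = 0.131). Without Ctrl 3, its lowest Ctrl library, it passed at -0.74. Fstl3, a relative of follistatin, had 0 to 4 counts in every library and was not tested.

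Both nuclear repressors of SMAD2 and SMAD3 among the members rose. Ski and Tgif2, on the list of further pathway genes, did not pass (log2 fold changes -0.38 and 0.52, SE 0.18 and 0.63, adjusted p = 0.155 and 0.609). Skil, which encodes SnoN and is itself a TGF-β target, had 106, 148 and 111 normalized CPM in Ctrl and 337 and 230.2 in Confine (log2 fold change 1.22, SE 0.20, adjusted p = 0.000214). Tgif1, a homeodomain co-repressor, had 75.1, 49.6 and 85.9 in Ctrl and 146 and 107 in Confine (log2 fold change 0.85, SE 0.22, adjusted p = 0.00811). For both genes the lower Confine library, Confine 3, still stood above the highest Ctrl library. Without Confine 2 the call of Tgif1 was lost (0.62).

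In the BMP arm the one abundant ligand fell. Bmp4, a ligand of mesenchymal cells (chr14:46383520-46390669, minus strand), had 170.2, 126 and 189 normalized CPM in Ctrl and 80.0 and 59.6 in Confine. The groups were separate, with a fall by 1.21 on the log2 scale (SE 0.21, adjusted p = 0.000347). Bmp2, its close relative, had 8 to 30 counts and overlapped widely (log2 fold change -0.062, SE 0.57, adjusted p = 0.955). Bmp6 had 0 to 4 counts, and Gdf6 and Gdf10 had 0 in every library, so these 3 ligands were not tested. A count of 0 leaves room for up to 0.101 to 0.128 normalized CPM per library.

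Of the 5 BMP receptor genes, 4 rose (80%), against 12.8% of all tested genes, all of them from moderate or low levels. Bmpr2, Acvrl1 and Eng each lost the call in at least 1 alternative fit. Acvr1, the type I receptor ALK2, had 15.3, 12.7 and 11.99 normalized CPM in Ctrl and 24.4 and 23.7 in Confine (log2 fold change 0.85, SE 0.20, adjusted p = 0.00337). Its rise passed the test in each of the 14 alternative fits. Bmpr2, the type II BMP receptor, had 40.4, 37.8 and 36.7 in Ctrl and 70.5 and 47.0 in Confine, so that most of its rise of 0.62 (SE 0.20, adjusted p = 0.0289) came from Confine 2. Without that library it was 0.30 and did not pass, and the call was also lost without Ctrl 1 (0.65), Ctrl 3 (0.57) or with library size alone (0.41).

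Acvrl1 and Eng encode the receptor ALK1 and its co-receptor endoglin, which are best known from endothelium. Eng had 9.57, 9.18 and 11.7 normalized CPM in Ctrl and 14.4 and 19.3 in Confine (log2 fold change 0.73, SE 0.22, adjusted p = 0.0198). Acvrl1 had 6, 2 and 2 counts in Ctrl and 15 and 18 in Confine (log2 fold change 2.24, SE 0.70, adjusted p = 0.0274), a change that rests on few reads. DESeq2 did not call Acvrl1 (adjusted p = 0.0733), and edgeR lost it without Ctrl 2 (1.97), Ctrl 3 (2.03), Confine 2 (2.47) or Confine 3 (1.98). Eng lost its call without Ctrl 1 (0.68), without Confine 3 (0.50) or with library size alone (0.52), and its exons overlap those of Fpgs on the opposite strand, which had 842 counts per library on average against 342 for Eng. The 8 endothelial markers summed to 0.595 to 1.36 normalized CPM in Ctrl and 2.43 to 2.70 in Confine. Tie1, Emcn and Cldn5 were at 0 in every library, and Vwf, the 1 tested marker, went from 7 to 17 counts in Ctrl to 72 and 64 in Confine. Vwf made up nearly all of the Confine sum, at 2.43 and 2.54 normalized CPM. Pecam1, Kdr, Tek and Cdh5 did not rise with it, with 0 to 11 counts in Ctrl and 0 to 3 in Confine, too few to test. The part of endothelial cells in the rise of Acvrl1 and Eng was not tested. Bmpr1a, the type I receptor ALK3, overlapped between the groups at 44.1 to 51.9 and 46.02 to 48.3 normalized CPM (log2 fold change -0.035, SE 0.18, adjusted p = 0.918).

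Of the 4 tested BMP antagonists 3 rose (75%, against 12.8% of all tested genes), and gremlin rose most. Grem1, which binds and blocks BMP2 and BMP4 (chr2:113746164-113758646, minus strand), had 183, 209 and 193 normalized CPM in Ctrl and 818 and 595 in Confine. The lower Confine library stood far above the highest Ctrl library, and the log2 fold change was 1.86 (SE 0.19, adjusted p = 7.93e-07). Bmper, a secreted protein that binds BMPs and can block or aid them, had 11.8, 9.94 and 8.93 normalized CPM in Ctrl and 21.4 and 22.5 in Confine (log2 fold change 1.10, SE 0.20, adjusted p = 0.0005). Nbl1, an antagonist of the same cystine-knot family as gremlin, had 19.9, 37.5 and 19.6 in Ctrl and 50.6 and 48.4 in Confine. Its Ctrl libraries were uneven, but none reached the Confine level, and it rose by 0.95 (SE 0.24, adjusted p = 0.00726). That call was lost without Confine 2 (0.92) or Confine 3 (0.98). Chrd, chordin, had 1.01 and 3.53 normalized CPM in the 2 Confine libraries, on either side of its Ctrl range of 1.74 to 2.72, and did not pass (adjusted p = 0.986). Its exons overlap those of Thpo on the opposite strand, which had 184 counts per library on average, more than Chrd. Nog, noggin, had 0 to 3 counts and was not tested.

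The SMADs of the BMP arm did not move together. Smad1 and Smad5, the main messengers, overlapped between the groups, with log2 fold changes of 0.30 (SE 0.24, adjusted p = 0.399) and -0.0050 (SE 0.19, adjusted p = 0.989). Smad1 passed without Ctrl 2 (0.59). Smad9, the third messenger of this arm, had 63, 52 and 23 counts in Ctrl and 9 and 7 in Confine, a fall by 2.54 on the log2 scale (SE 0.54, adjusted p = 0.00176). Its transcripts hold stretches of 108 to 133 bases at 95% identity or more to transcripts of 7 other genes, so its few counts are uncertain. Smad6, the inhibitory SMAD that blocks BMP receptors (chr9:63953076-64022059, minus strand), had 4.70, 8.81 and 6.72 normalized CPM in Ctrl and 2.37 and 2.74 in Confine. It fell by 1.40 (SE 0.31, adjusted p = 0.00239), with every Confine library below every Ctrl library.

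The Id genes, which encode helix-loop-helix inhibitors of differentiation and are classic immediate targets of BMP SMADs, held 2 of the 3 largest falls among the members. Id1 and Id3 fell by 2.76 and 2.55 on the log2 scale beside 2.54 for Smad9, and the order of the 3 changed between fits, with Smad9 at -2.83 and Id3 at -2.47 without Ctrl 3. Id3 (chr4:136143497-136145755, plus strand) was the most abundant of them, with 1436, 1582 and 1833 normalized CPM in Ctrl and 300.5 and 250.4 in Confine. It fell by 2.55 on the log2 scale (SE 0.20, adjusted p = 4.94e-08). Id1 (chr2:152736251-152737410, plus strand) had 43.4, 38.6 and 42.2 normalized CPM in Ctrl and 6.12 in both Confine libraries, and fell by 2.76 (SE 0.21, adjusted p = 2.21e-08). For both genes the groups were separated by several times the spread within either group. Id2 went the other way, with 19.5, 21.1 and 23.2 normalized CPM in Ctrl and 34.2 and 28.1 in Confine (log2 fold change 0.55, SE 0.19, adjusted p = 0.0412). The rise of Id2 was small and was not called without Ctrl 1 (0.49), Confine 2 (0.40) or Confine 3 (0.68), with library size alone (0.34) or with no filter on low counts (0.54). Id4 had 5 to 24 counts and overlapped (log2 fold change -0.52, SE 0.64, adjusted p = 0.619).

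Id3 made up most of the Id counts in every library, and the family total was lower in both Confine libraries. The summed level of Id1 to Id4 was 1500, 1643 and 1898 normalized CPM in Ctrl and 341 and 285 in Confine. Of the counts on the 4 genes, Id3 took 96.2% ± 0.41 (SD, n = 3) in Ctrl and 88.0% ± 0.11 (SD, n = 2) in Confine. The share of Id2 went from 1.27% ± 0.042 to 9.93% ± 0.11, so that in Confine Id2 outnumbered Id1, which it had not in any Ctrl library.

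**Figure D2:**
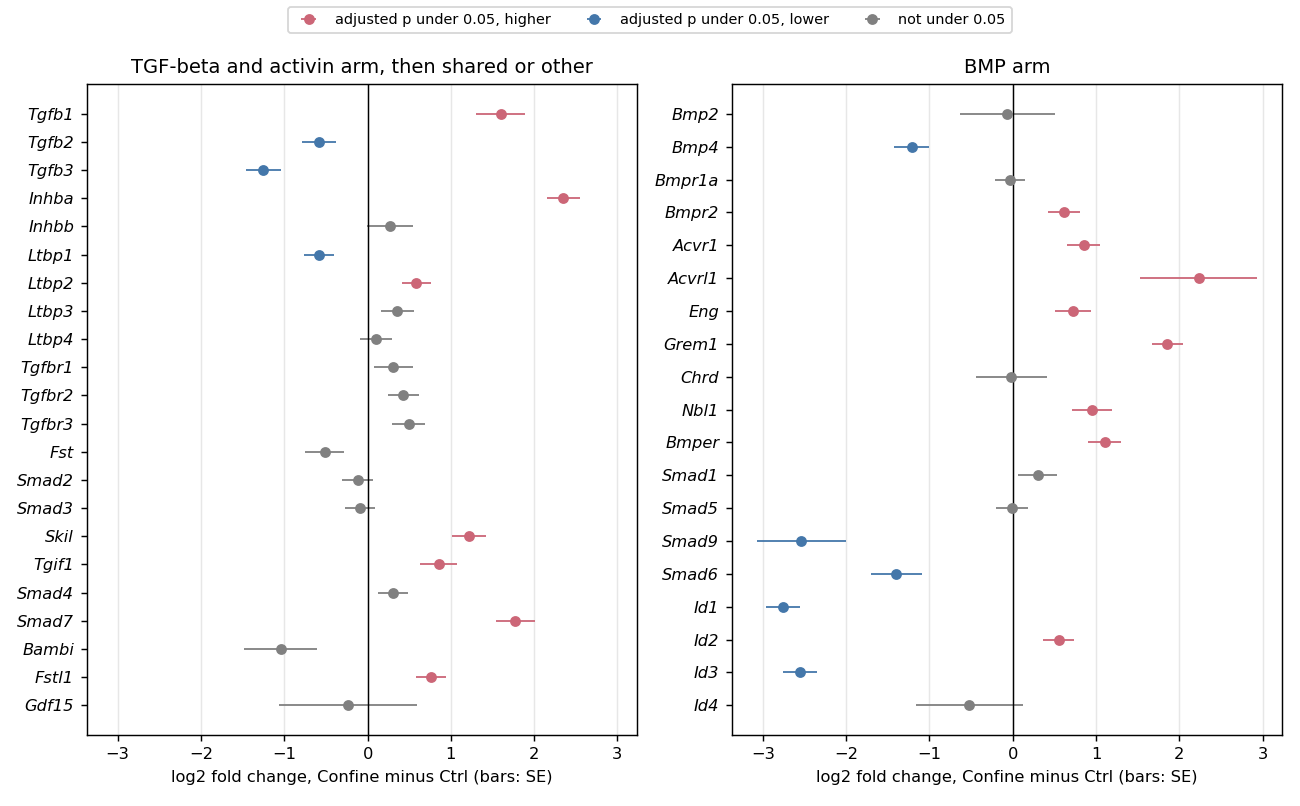
Log2 fold change of Confine over Ctrl for the 41 tested members, with bars of 1 standard error, the TGF-β and activin arm and the shared or other members on the left and the BMP arm on the right. Red and blue points passed the test at an adjusted p under 0.05 as higher or lower and grey points did not; Inhba at 2.35 and Id1 at -2.76 mark the ends of the range.

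Of the members shared by both arms, the inhibitory SMAD rose while the common SMAD did not pass. Smad7, which blocks type I receptors and is a direct TGF-β target, had 18.5, 25.1 and 16.1 normalized CPM in Ctrl and 50.0 and 85.9 in Confine. The Confine libraries differed from each other but both were well above Ctrl, with a log2 fold change of 1.77 (SE 0.23, adjusted p = 1.76e-05). Smad4 was at 70.0 to 92.8 normalized CPM in Ctrl and at 97.0 in both Confine libraries, and did not pass (log2 fold change 0.30, SE 0.19, adjusted p = 0.266), although it passed without Ctrl 2 (0.44). Fstl1, a secreted glycoprotein of mesenchymal cells, was among the most abundant members, with 1065, 897 and 886 normalized CPM in Ctrl and 1741 and 1478 in Confine (log2 fold change 0.76, SE 0.18, adjusted p = 0.00407). Its transcripts hold stretches of 101 to 535 bases at 95% identity or more to those of other genes, among them Xdh with 1585 counts per library on average. Bambi, a pseudoreceptor that lacks a kinase domain, had 1.73, 2.04 and 1.11 normalized CPM in Ctrl and 0.710 and 0.874 in Confine. Its groups did not overlap, but it did not pass (log2 fold change -1.04, SE 0.44, adjusted p = 0.0996), while with library size alone it passed at -1.25. Gdf15, a stress-induced ligand of the family, had 2 to 17 counts with no difference beyond the spread (adjusted p = 0.873).

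Several member pairs that act against each other or share a role were compared within each library, where the scaling between libraries drops out. These pairs were chosen after their values were seen. The number of Grem1 counts per Bmp4 count was 1.08, 1.65 and 1.02 in Ctrl and 10.2 and 9.98 in Confine. For Inhba per Fst the ratio was 4.59, 4.34 and 5.26 in Ctrl and 30.9 and 37.3 in Confine. Antagonist over ligand in the BMP arm and ligand over antagonist in the activin arm were both higher in each Confine library than in any Ctrl library. The ratio of Smad7 to Smad6, the inhibitory SMADs, was 3.93, 2.85 and 2.39 in Ctrl and 21.1 and 31.4 in Confine. The ratio of Id3 to Id2 was lower in Confine, at 8.80 and 8.92 against 73.6, 75.0 and 79.1 in Ctrl. These ratios restate the changes of their genes, so no test is given for them.

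**Figure D3:**
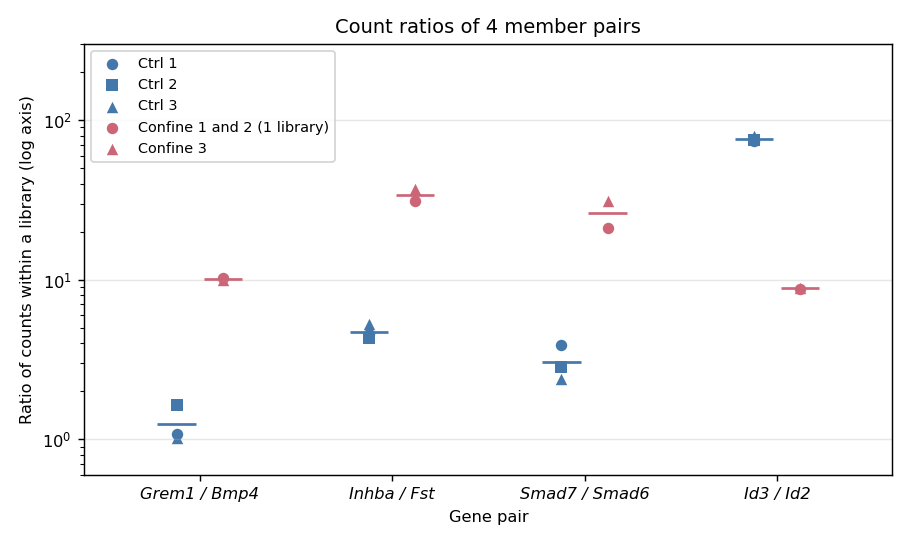
Ratio of counts within each library (log axis) for Grem1 over Bmp4, Inhba over Fst, Smad7 over Smad6 and Id3 over Id2, with 1 point per library, blue for Ctrl and red for Confine, and a line at each group mean. The first 3 ratios stand higher in both Confine libraries and the last stands lower, at 8.80 and 8.92 against 73.6 to 79.1.

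The promoters of 4 members the results turn on are shown because 2 of these genes rose (Grem1, Inhba) and 2 fell (Bmp4, Smad6). Each line gives the 250 bases before the RefSeq start in GRCm38.p6, read 5′ to 3′ on the gene's strand. They lie at chr2:113758649-113758898 for Grem1, chr14:46390670-46390919 for Bmp4, chr13:16011601-16011850 for Inhba and chr9:64022060-64022309 for Smad6, on the plus strand for Inhba and on the minus strand for the others. Capitals mark GGCGCC (a GC-rich element bound by SMAD1 and SMAD5, the same on both strands), CAGAC (a SMAD-binding core, GTCTG on the other strand, searched after the data were seen) and ACGTG (the core of the hypoxia response element, CACGT on the other strand).
Grem1: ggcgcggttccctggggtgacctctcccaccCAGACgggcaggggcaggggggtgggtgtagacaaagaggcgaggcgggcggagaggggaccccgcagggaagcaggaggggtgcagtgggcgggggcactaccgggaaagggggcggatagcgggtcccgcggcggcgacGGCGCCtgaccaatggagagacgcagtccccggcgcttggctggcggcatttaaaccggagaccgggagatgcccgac
Bmp4: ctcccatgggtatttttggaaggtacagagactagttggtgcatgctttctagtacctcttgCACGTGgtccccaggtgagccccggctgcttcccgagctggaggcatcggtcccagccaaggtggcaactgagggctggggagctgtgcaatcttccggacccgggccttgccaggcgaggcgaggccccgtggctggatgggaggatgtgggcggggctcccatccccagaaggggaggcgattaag
Inhba: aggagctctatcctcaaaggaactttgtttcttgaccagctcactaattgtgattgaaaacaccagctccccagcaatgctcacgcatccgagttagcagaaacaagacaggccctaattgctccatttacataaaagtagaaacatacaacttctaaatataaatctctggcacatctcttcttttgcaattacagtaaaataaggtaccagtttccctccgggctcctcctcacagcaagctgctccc
Smad6: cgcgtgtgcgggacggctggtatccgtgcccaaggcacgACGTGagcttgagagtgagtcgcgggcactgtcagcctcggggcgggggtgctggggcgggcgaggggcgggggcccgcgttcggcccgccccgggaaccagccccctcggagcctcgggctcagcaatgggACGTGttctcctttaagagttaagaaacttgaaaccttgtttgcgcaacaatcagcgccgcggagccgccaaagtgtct

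The Grem1 window held CAGAC from -219 to -215 and GGCGCC from -78 to -73, counted from the start. In the Bmp4 window both strands of ACGTG overlap in the 6 letters CACGTG from -188 to -183, and the Smad6 window held ACGTG from -211 to -207 and from -79 to -75. None of the searched letters stood in the Inhba window, which was also the least GC-rich of the 4 at 43.2%. A RefSeq promoter was given for 33 members; Id1, Bambi, Nog, Smad2, Gdf6, Fst, Smad4, Tgfbr3, Smad7, Tgfb3, Acvrl1, Skil and Bmp2 had no entry. GGCGCC was in 11 of the 33 windows (33.3%) and in 10.8% of the windows of all 27025 genes, ACGTG in 24.2% and 18.5%, and CAGAC in 45.5% and 45.8%. The longer SMAD-binding element CAGACA was searched on both strands and was in 15.2% and 19.3%, and each of its matches is also a match of the shorter core. The median GC content was 65.4% over the member windows and 52.4% over all windows. These matches describe the letters in the windows only.

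Further genes of the pathway were read from a list of 75, chosen with earlier results of these data known, of which 39 were tested. Of these, 13 were higher (33.3%) and 2 lower (5.13%), against 12.8% and 10.2% of all tested genes, with a median log2 fold change of 0.19. Fewer were higher without Confine 2 and fewer lower without Confine 2 or Confine 3, fits that leave 1 Confine library. Without Ctrl 2, 1 was lower. With library size alone 4 were lower, in a fit that called 1444 of all tested genes higher and 2805 lower. Of 6 tested receptors 3 rose and 1 fell, of 9 tested genes for ligand activation and storage 5 rose, and of 14 tested intracellular regulators 1 rose (7.14%). Amhr2, the type II receptor for anti-Müllerian hormone, had 1, 6 and 3 counts in Ctrl and 43 and 31 in Confine (log2 fold change 3.35, SE 0.63, adjusted p = 0.000626). Inha, the inhibin α subunit that pairs with activin subunits, had 2.70, 3.70 and 3.49 normalized CPM in Ctrl and 11.7 and 13.1 in Confine (log2 fold change 1.91, SE 0.24, adjusted p = 1.08e-05). Lrrc32, also called GARP, which displays latent TGF-β on the cell surface, had 57.2, 52.6 and 43.8 in Ctrl and 163 and 182 in Confine (log2 fold change 1.75, SE 0.18, adjusted p = 1.34e-06). Nedd4l, a ubiquitin ligase that acts on activated SMAD2 and SMAD3, rose by 1.19 (SE 0.20, adjusted p = 0.000192). The groups of these 4 genes did not overlap. Acvr2a, a type II activin receptor, had 8.29, 8.09 and 5.83 normalized CPM in Ctrl and 2.80 and 3.06 in Confine and fell by 1.34 (SE 0.27, adjusted p = 0.00133). Crim1, a membrane protein that tethers BMPs, fell by 0.64 (SE 0.21, adjusted p = 0.0366), a call lost without Ctrl 2 (-0.41), Confine 2 (-0.61) or Confine 3 (-0.67).

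A list of TGF-β targets was chosen with earlier results of these data known, so its counts describe the chosen genes only. It has Col1a1, Col1a2 and Fn1 in common with the fibroblast markers and Cnn1 with the smooth muscle and pericyte markers. Of its 20 tested genes, 13 were higher (65%) and 2 lower (10%) in Confine, against 12.8% and 10.2% of all tested genes. The median log2 fold change was 1.01, against -0.0021 over all tested genes. Cdkn1a, the cell-cycle inhibitor p21, had 315, 337 and 224 normalized CPM in Ctrl and 1921 and 2014 in Confine (log2 fold change 2.75, SE 0.20, adjusted p = 1.26e-08). Ccn2, a matricellular growth factor also known as Ctgf, had 9.74, 5.06 and 5.27 in Ctrl and 32.4 and 31.2 in Confine (log2 fold change 2.24, SE 0.25, adjusted p = 2.64e-06). Both genes are known as targets of other pathways too, Cdkn1a of p53 and Ccn2 of YAP. Adam19, a membrane protease, rose by 2.23 (SE 0.22, adjusted p = 6.58e-07), and Lox, the collagen cross-linking enzyme, by 1.76 (SE 0.18, adjusted p = 1.24e-06). In the other direction, Snai2, a repressor of epithelial genes, had 127, 86.7 and 146 normalized CPM in Ctrl and 24.02 and 20.4 in Confine and fell by 2.43 (SE 0.24, adjusted p = 5.35e-07). Postn, the matrix protein periostin, fell by 0.96 (SE 0.24, adjusted p = 0.00557), and this call was lost without Confine 3 (-0.78). The smooth-muscle gene Acta2, a standard readout of TGF-β in fibroblasts, did not pass, with a log2 fold change of -0.59 (SE 0.21, adjusted p = 0.0557). Over the alternative fits, 11 to 13 genes of the list were higher and 1 to 5 lower, with 5 lower without Ctrl 2 and 1 without Confine 3.

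A list of BMP targets other than Id genes was likewise chosen with earlier results of these data known. Of its 9 tested genes, 4 were lower (44.4%) and 1 was higher (11.1%), against 10.2% and 12.8% of all tested genes. The median log2 fold change was -0.15. Alpl, the alkaline phosphatase of bone-forming cells, had 122, 56 and 65 counts in Ctrl and 4 and 3 in Confine (log2 fold change -4.52, SE 0.54, adjusted p = 6.33e-06). Atoh8, a helix-loop-helix factor, had 18.7, 21.2 and 18.2 normalized CPM in Ctrl and 2.23 and 1.15 in Confine and fell by 3.50 (SE 0.29, adjusted p = 6.63e-08). Dlx5, a homeobox gene of the skeleton, had 134, 90 and 128 counts in Ctrl and 25 and 16 in Confine and fell by 2.58 (SE 0.37, adjusted p = 3.98e-05). These 3 genes were separate between the groups in every library. Msx2, another homeobox gene, fell by 1.80 (SE 0.47, adjusted p = 0.00868) but lost its call without Confine 2 (-1.93) or Confine 3 (-1.69). The exception was Unc5b, a netrin receptor, with 114, 128 and 102 normalized CPM in Ctrl and 253 and 312 in Confine (log2 fold change 1.30, SE 0.18, adjusted p = 3.37e-05). Msx1, Hey1, Dlx2 and Runx2 did not pass, with log2 fold changes between -0.15 and 0.32. Genes of both target lists answer to other signals as well, and which signal moved them was not tested.

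**Figure D4:**
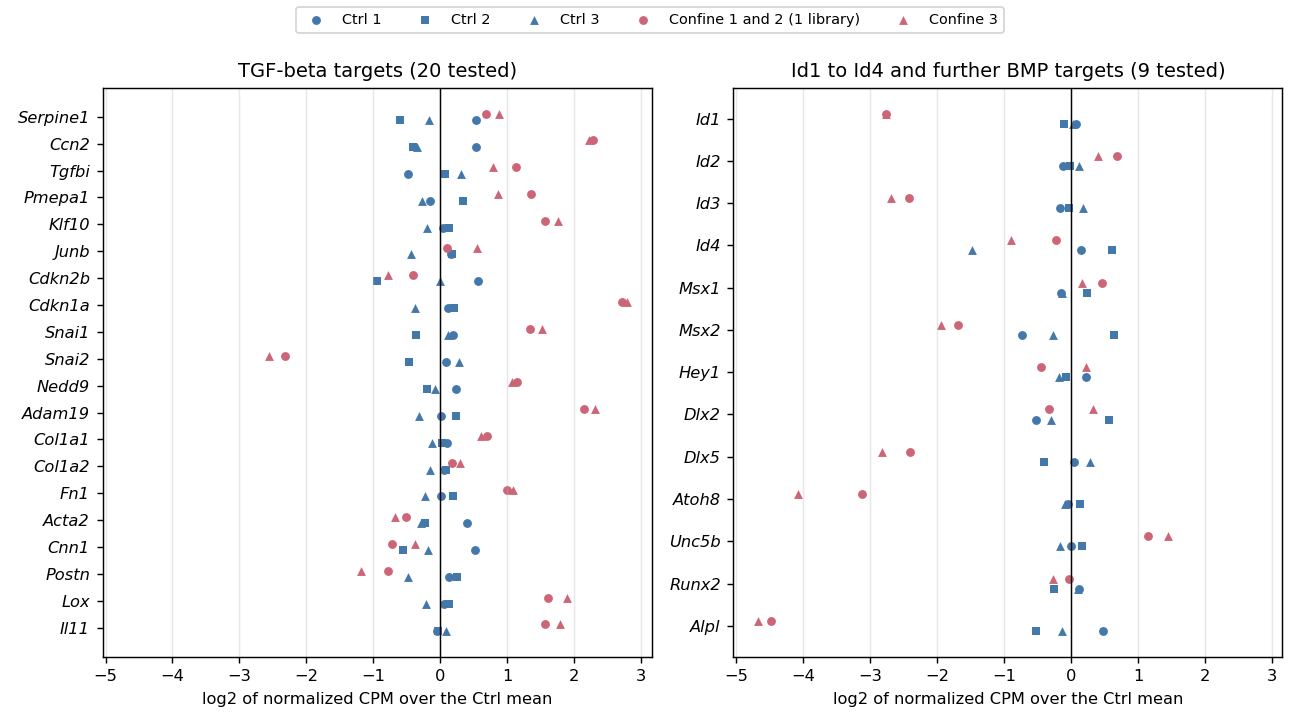
Log2 of each library's normalized CPM over the Ctrl mean for the 20 tested TGF-β targets (left) and for Id1 to Id4 and the 9 further tested BMP targets (right), with 1 point per library, blue for Ctrl and red for Confine. Most red points on the left lie to the right of 0, Snai2 being the plainest exception, while Id1, Id3, Atoh8, Dlx5, Msx2 and Alpl lie far to the left in both Confine libraries.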

How the data were processed

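The authors deposited raw counts of reads per gene, without normalization, for 3 Ctrl and 3 Confine columns. Per the submitters' processing notes, Trim Galore 0.6.10, HISAT2 2.1.0, SAMtools 1.5 and featureCounts were used with mm10. The annotation and the strand setting of the counting are not given in the sources used here, and both could shift reads among genes that overlap or share sequence. Symbols, positions and exon lengths came from GENCODE M21 (GRCm38), which held 54587 of 55335 identifiers in the same version. Promoters came from RefSeq (GRCm38.p6). The columns not used numbered 0.

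Identical Confine columns entered once. Genes kept by filterByExpr (15881) were scaled by TMM, and edgeR 4.0.16 (R 4.3.3) gave quasi-likelihood tests with the group as the only term (3 residual degrees of freedom, median prior degrees of freedom 14.8), with Benjamini-Hochberg adjustment over all tested genes. The call was an adjusted p under 0.05. The scripts were tested on simulated data. DESeq2 1.42.0, limma-voom (limma 3.58.1), other normalizations and filters, a replicate block and leaving out each library were alternatives. Copies of member transcripts were searched with blastn 2.17.0 (at least 100 bases at 95% identity).

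The members and lists were chosen with earlier results of these data known. All 46 members were to be named, and from each further list up to 4 genes with the largest change in each direction among those that passed. Acta2, Ski, Tgif2 and the uncalled BMP targets were named after their values were seen.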

Additional observations from a re-analysis of the deposited data

How the results depend on the processing

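In 14 alternative fits none of the 23 called members changed sign, and 14 of them passed the test wherever they were tested: Tgfb1, Tgfb3, Inhba, Skil, Bmp4, Acvr1, Grem1, Bmper, Smad9, Smad6, Id1, Id3, Smad7 and Fstl1. The other 9 lost the call at least once. Most of them lost it without Confine 2 and most without Confine 3, fits that leave 1 Confine library. With a replicate block and the repeated library as number 2, 6 of them lost it. When each Ctrl library was left out, 12 to 19 members were called higher and 6 to 8 lower. In the TGF-β and activin arm these were 4 to 8 and 1 to 3, and in the BMP arm 5 to 8 and 5. Over all tested genes the same fits called 1564 to 2411 higher and 1186 to 2015 lower. Fewer members and fewer genes overall were called without Confine 2 or Confine 3. With the fold asked for in addition, 5 members were higher and 3 lower, in the TGF-β and activin arm 2 and 0 and in the BMP arm 2 and 3. With library size alone 5 BMP members were higher. The causes were not tested.

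Differences between same-numbered libraries had a correlation across genes of -0.058, or of 0.057 with the repeated library as number 1. Each value rests on 1 difference per group, so it cannot decide whether the replicate numbers pair the samples. With a replicate block and the repeated library as number 2, 11 members were higher and 6 lower, with 1 lower in the TGF-β and activin arm and 5 higher in the BMP arm. With it as number 1, the block gave 19 higher and 8 lower, 8 of those higher being in the TGF-β and activin arm. Over all genes it gave 2640 higher and 2293 lower, against 1448 and 1080 with number 2 and 2035 and 1619 without a block.

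Signs reversed only in members that did not pass. When each library was left out, the log2 fold change ran from -0.066 to 0.25 for Ltbp4, from -0.26 to 0.0099 for Smad2, from -1.14 to 0.52 for Bmp2, from -0.11 to 0.016 for Bmpr1a, from -1.17 to 0.64 for Chrd, from -0.12 to 0.14 for Smad5 and from -1.94 to 0.56 for Gdf15. Ltbp4 was also at -0.11 with library size alone. The block with number 1 gave 0.038 for Bmp2, 0.021 for Bmpr1a, 0.14 for Smad5 and 0.30 for Gdf15, the identical columns as 2 samples gave 0.15 for Bmp2 and 0.0068 for Smad5, and limma-voom gave 0.0071 for Smad5. With so few counts, Bmp2, Id4, Gdf15 and Acvrl1 could show only large changes at this depth.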
